A study of Arabidopsis thaliana with 4 samples.

Results

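Expression of 4 oleosin genes, OLEO3 (AT5G51210), AT3G01570, AT3G18570 and AT2G25890, was examined in Arabidopsis thaliana seedlings after induction of LEAFY COTYLEDON1 (LEC1). The genes were chosen as members of the oleosin family, with earlier results of these data known, and only OLEO3 carries an oleosin name in the annotation used. Each of the 4 is the only gene named by its probe set, 1 probe set per gene. They are 4 of the 13356 genes that probe sets of the array named alone. OLEO3 lies on chromosome 5, AT3G01570 and AT3G18570 on chromosome 3 and AT2G25890 on chromosome 2, per the gene table of assembly TAIR10.1. OLEO3 and AT3G01570 are counted here as seed-type oleosins and AT3G18570 and AT2G25890 as other oleosins, a split drawn from general knowledge of the family and not from the files. The label other oleosins does not mean that these 2 genes are not expressed in seeds.

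Whole seedlings of the Columbia ecotype were sampled after 4 days of growth, and all 4 samples carried the pER8-LEC1 transgene, from which estradiol drives LEC1. Induced seedlings grew on medium with 0.01 mM estradiol and control seedlings on medium with 0.1% DMSO. No DMSO content is given for the induced medium, so a difference in DMSO cannot be told apart from the induction. There were 2 biological replicates in each group and 1 Affymetrix ATH1 array for each replicate. RNA was amplified in a 2-cycle procedure from about 100 mg of pooled seedlings, per the labels. Estradiol-treated seedlings lacking the transgene were not analysed here, so effects of estradiol itself and of LEC1 cannot be told apart. The number of transgenic lines is not given in the sources used here. The level of LEC1 was not analysed here, so the induction could not be checked from its own transcript.

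Oleosins are small proteins that coat oil bodies, the droplets in which seeds store triacylglycerol. A long hydrophobic hairpin, bent at a proline knot, sits in the oil, and the 2 flanking arms lie on the droplet surface, where they keep droplets small and apart. The embryo makes oleosins while it fills with oil, and seedlings break them down with the oil after germination. LEC1, a subunit of a CCAAT-binding factor, acts in the embryo during this maturation. Related oleosins occur in the anther, where tapetum cells add them to the pollen coat.

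All 4 oleosin genes were higher in LEC1-induced seedlings than in controls. OLEO3 rose 133-fold, AT3G01570 at least 407-fold, AT3G18570 at least 35.2-fold and AT2G25890 at least 13.6-fold. A rise is given as "at least" where a control signal lay under the dim limit of 13.9, the 40th percentile of all normalized signals. Control signals under it were set to it for these bounds, and a fold with no control signal under it is called measured. The limit stands in for detection calls, which are not given. A signal above it is thus not established as detected. Each gene passed limma's test over all 14433 kept probe sets (adjusted p under 0.05), a call that 2.83% of them met in the upward direction. A probe set was kept when its deposited signal exceeded that array's 40th percentile on at least 2 arrays. OLEO3 passed on all 4 arrays, AT3G18570 on 3, and AT3G01570 and AT2G25890 on the 2 induced arrays alone, so the count of 4 calls among 4 genes is a description and not support. In whole seedlings, more cells with the transcript and more transcript per cell cannot be told apart.

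OLEO3 had deposited signals of 31 (replicate 1) and 30.7 (replicate 2) in controls. In induced seedlings they were 7208.1 and 4672.8, in the same order of replicates. The control arrays lay close together and the groups were far apart. After quantile normalization, which gives the arrays the same distribution of signals, the control values were 35.5 and 44.6 and the induced values 5209 and 5359. The induced replicates thus came to within a few percent of each other. The log2 signal went from 5.31 ± 0.23 (SD, n = 2) to 12.37 ± 0.03 (SD, n = 2), a change of 7.05 ± 0.28 SE (limma adjusted p = 1.19e-04). OLEO3 was the only 1 of the 4 genes with both control signals above the dim limit, so its fold is called measured here and is not given as a bound.

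AT3G01570 had, as deposited, control signals of 11.3 and 8.3 and induced signals of 7995.6 and 5300.2. Its control signals were dim on both arrays and its induced signals bright on both. The normalized values were 12.8 and 11.7 against 5569 and 5735, with no overlap between the groups. The log2 signal went from 3.61 ± 0.09 (SD, n = 2) to 12.46 ± 0.03 (SD, n = 2), and the fitted change was 8.85 ± 0.29 SE (limma adjusted p = 1.07e-04). With dim signals set to the limit it was 8.67.

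AT3G18570 had, as deposited, control signals of 14.9 and 4.3 and induced signals of 869.7 and 382.3. Within each group replicate 1 was the brighter array. Normalized, the control values were 17 and 5.66 and the induced values 643.5 and 453.9, so 1 of 2 control arrays was under the dim limit. The log2 signal went from 3.29 ± 1.12 (SD, n = 2) to 9.08 ± 0.36 (SD, n = 2). The fitted change was 5.78 ± 0.55 SE (limma adjusted p = 0.00583), and 5.14 with the dim signal set to the limit. Without control replicate 2 the fitted change was 4.93 (limma adjusted p = 0.0191) and without control replicate 1 it was 6.48 (0.00521).

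AT2G25890 had, as deposited, control signals of 10.8 and 1 and induced signals of 514.3 and 91.3. Both replicates of each group differed more for this gene than for the other 3, and the groups still did not overlap. Normalized, the values were 12.2 and 1.29 against 359 and 99.9, and both control arrays were under the dim limit. The log2 signal went from 1.99 ± 2.28 (SD, n = 2) to 7.56 ± 1.31 (SD, n = 2). The fitted change was 5.58 ± 1.09 SE (limma adjusted p = 0.0403), and 3.77 with dim signals set to the limit. It no longer passed when control replicate 2 was left out (change 3.94, limma adjusted p = 0.105) or when LEC1 induced replicate 1 was (4.61, 0.0596). Nor did it pass with no filter on dim probe sets (0.0534), with a robust variance prior (0.0542) or when the prior had no trend (0.0773).

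**Figure D1:**
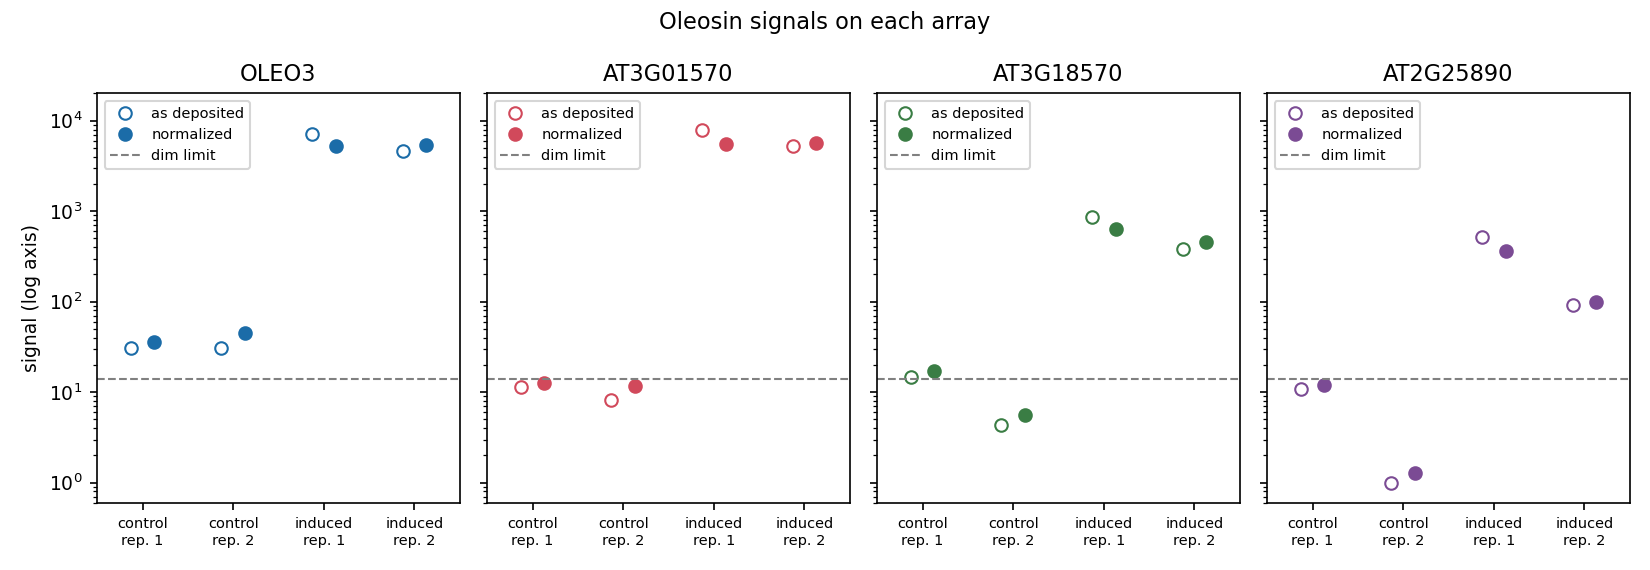
Signal of each oleosin gene on each array, on a log axis, with 1 panel per gene; open points are deposited values, filled points quantile normalized values and the dashed line the dim limit of 13.9. Both induced arrays lie above both control arrays for each gene, and only OLEO3 has both normalized control points above the dashed line.

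In each of the 4 genes both induced arrays were above both control arrays, a pattern that 29.3% of kept probe sets showed. With 2 arrays against 2, an exact two-sided permutation test of 1 gene cannot give a p below 0.333, so the calls above rest on the variance that limma shares across probe sets. Ordered by fitted rise among the 14433 kept probe sets, AT3G01570 was at place 28, OLEO3 at 50, AT3G18570 at 86 and AT2G25890 at 91. The places of AT3G01570, AT3G18570 and AT2G25890 rest in part on dim control signals, so they are not read as a measured order. The median change of all kept probe sets was 0 to 2 decimals after quantile normalization, and the median over the 4 oleosin genes was 6.42, or 6.10 with dim signals set to the limit. Of the 408 probe sets called higher, 247 had a measured fold, as OLEO3 did. Another 44 had 1 control array under the dim limit, as AT3G18570 did, and 117 had both, as AT3G01570 and AT2G25890 did.

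**Figure D2:**
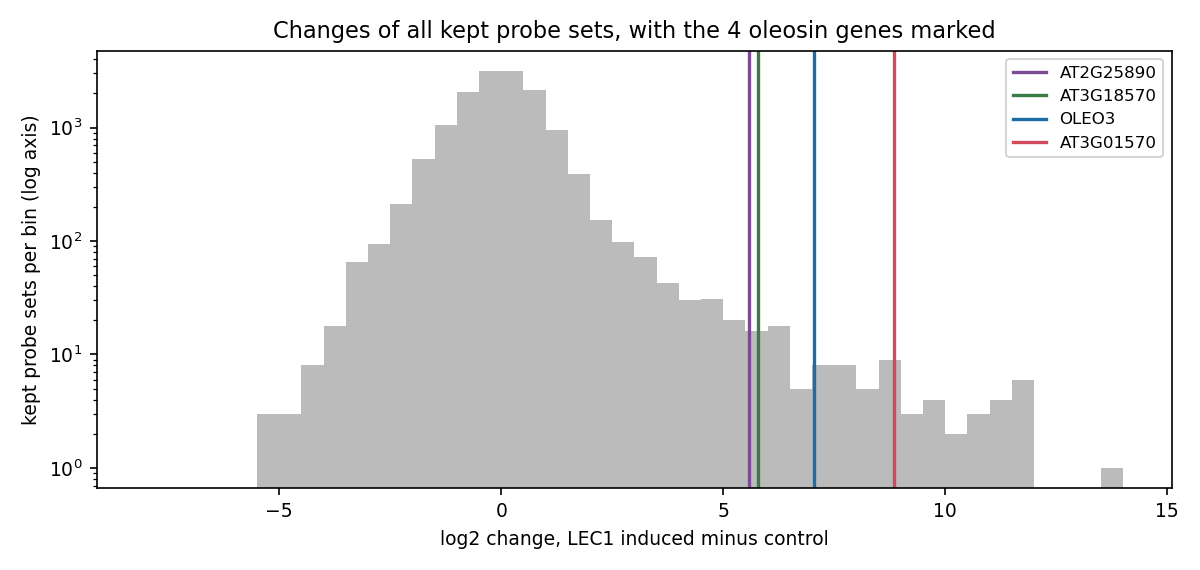
Number of kept probe sets (log axis) by log2 change, LEC1 induced minus control, in bins of 0.5, with a vertical line at each oleosin gene's fitted change. The lines at 5.58, 5.78, 7.05 and 8.85 stand in the sparse right tail of the distribution.

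The replicates differed in brightness, and the oleosin genes followed this to unequal degrees. As deposited, the median signal was 1.77 times higher on induced replicate 1 than on induced replicate 2. OLEO3 was 1.54 times and AT3G01570 1.51 times brighter on induced replicate 1, which is below that ratio. AT3G18570 was 2.27 times and AT2G25890 5.63 times brighter there, which is above it. After normalization the ratios of induced replicate 1 to induced replicate 2 were 0.972, 0.971, 1.42 and 3.59 in the same order. In controls the normalized ratio of replicate 1 to replicate 2 was 0.797 for OLEO3 and 1.09 for AT3G01570, and 3.01 for AT3G18570 and 9.39 for AT2G25890. Of these control signals, only those of OLEO3 and that of AT3G18570 on replicate 1 were above the dim limit, so the control ratios of the 3 other genes are not read as differences between replicates.

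Folds taken within a replicate number, from the deposited signals, were 233 and 152 for OLEO3 in replicates 1 and 2. They were 708 and 639 for AT3G01570, 58.4 and 88.9 for AT3G18570, and 47.6 and 91.3 for AT2G25890. The ratios of AT3G01570, AT3G18570 and AT2G25890 have dim control signals below the line and are not read as measured folds.

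The seed-type oleosins were compared with the other oleosins through the difference in log2 signal between 2 genes on the same array, which was then compared between groups. OLEO3 minus AT3G18570 was 1.06 and 2.98 on control arrays and 3.02 and 3.56 after induction, so the groups lay side by side with a gap of a few hundredths. The change of OLEO3 exceeded that of AT3G18570 by 1.27 (exact two-sided permutation p = 0.333, the smallest this design can give). OLEO3 minus AT2G25890 was 1.55 and 5.11 on control arrays and 3.86 and 5.75 after induction, and here the groups overlapped (difference in change 1.48, exact two-sided permutation p = 0.667).

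For AT3G01570 the differences were larger. AT3G01570 minus AT3G18570 was -0.41 and 1.05 on control arrays and 3.11 and 3.66 after induction, a difference in change of 3.07 (exact two-sided permutation p = 0.333). AT3G01570 minus AT2G25890 was 0.07 and 3.18 on control arrays and 3.96 and 5.84 after induction, a difference in change of 3.28 (exact two-sided permutation p = 0.333). In both pairs the groups did not overlap. Over these 4 pairs no p can pass 0.05, with or without adjustment. With dim signals set to the limit the 4 differences were 1.92, 3.28, 3.53 and 4.90, all in the direction of a larger change in the seed-type gene. The setting itself widens each difference, because it lowers the rises of AT3G18570 and AT2G25890 more than those of the seed-type genes. For AT3G01570 minus AT2G25890 all control signals were set to the limit, so 4.90 is their difference on induced arrays alone. Without that setting, the mean over the 4 pairs was 2.27, and it was 1.00 without control replicate 1, 3.51 without control replicate 2 and 1.65 without LEC1 induced replicate 2. The folds of AT3G18570 and AT2G25890 are lower bounds, so the data do not settle whether their rises were smaller than the measured rise of OLEO3. The fold of AT3G01570 is a lower bound too, so its pairs are not settled either.

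The direction of all 4 genes was the same under each of the 14 alternative settings tried. AT3G01570 and OLEO3 were called under all 14, AT3G18570 under 13 and AT2G25890 under 8. The test that the submitters describe, two-sided per probe set with a false discovery rate under 0.2, was also run on the same values. The methods' t-test called 1.31% of kept probe sets upward, among them AT3G01570 (adjusted p = 0.0858) and OLEO3 (adjusted p = 0.162). AT3G18570 (adjusted p = 0.239) and AT2G25890 (adjusted p = 0.344) did not pass it.

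**Figure D3:**
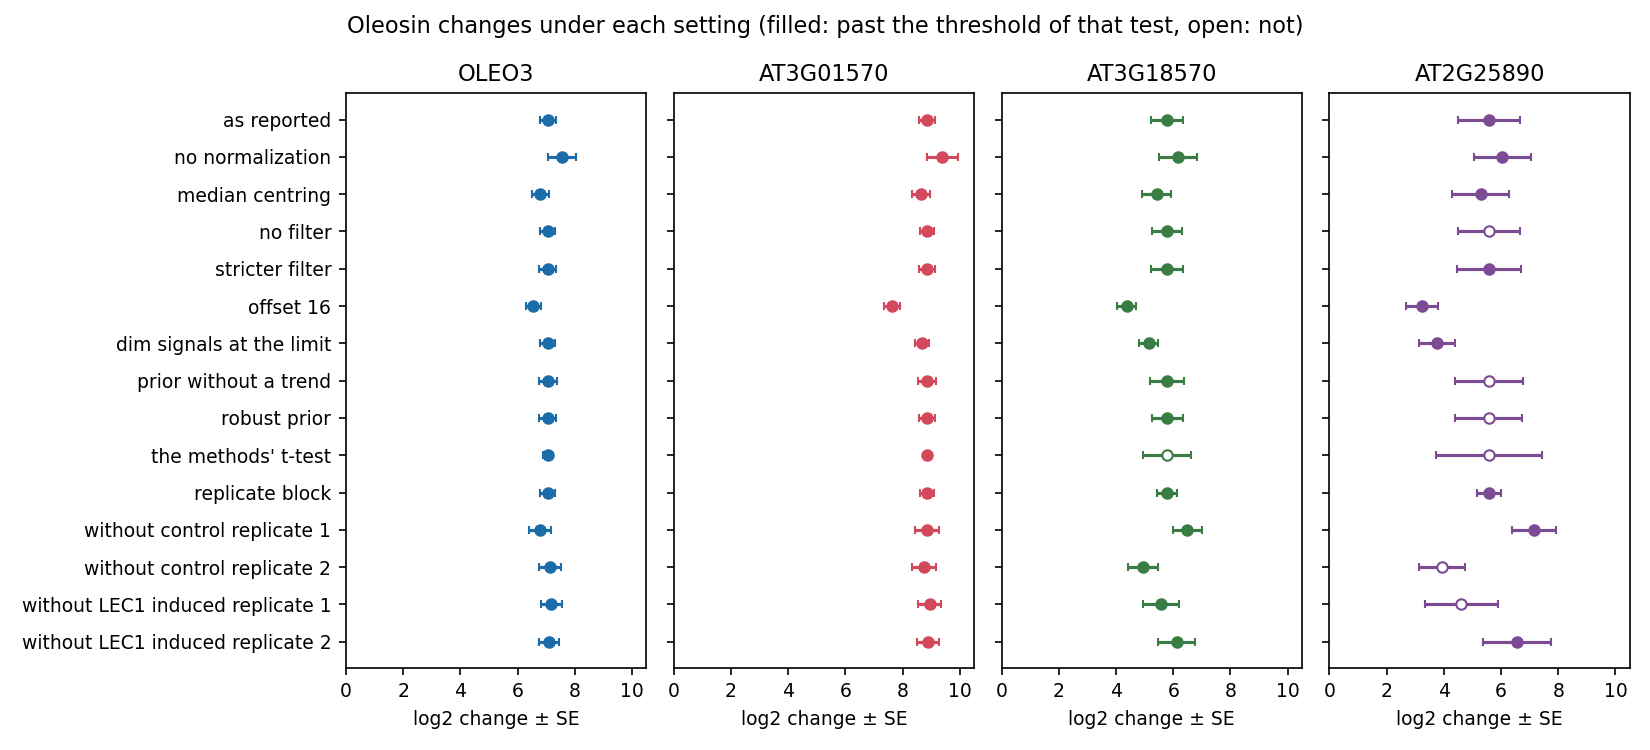
Log2 change ± SE of each oleosin gene, LEC1 induced minus control, as reported and under the 14 alternative settings; filled points passed the threshold of that test and open points did not. OLEO3 ranges from 6.55 to 7.56, AT3G01570 from 7.63 to 9.39 and AT3G18570 from 4.37 to 6.48, and AT2G25890 ranges from 3.24 to 7.15 with 6 open points.

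Other oleosin loci gave little to set beside these genes. Of 14 further loci listed, 4 of the seed type and 10 of the tapetum type, 1 was named alone on the array, AT5G56100 of the tapetum list. As deposited, its control signals were 29.7 and 31.9 and its induced signals 118.9 and 28, so 1 induced array was high and the other was not. The normalized means were 39.6 and 45.3 and the change was 0.19 ± 0.49 SE (limma adjusted p = 0.829). It turned to -0.46 without LEC1 induced replicate 1 and to -0.03 without control replicate 1.

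Among the named probe sets, those with the pattern nearest to each oleosin gene were found by the Euclidean distance between log2 signals over the 4 arrays, each probe set taken minus its own mean. Each gene was compared with 7721 other kept probe sets that name 1 gene. For OLEO3 the nearest were AT1G28030 (distance 0.643), AT5G62800 (0.744) and AT1G04660 (0.812). For AT3G01570 they were AT2G34700 (0.377), AT1G54860 (0.972) and AT1G04660 (1.10), and AT1G04660 was thus near both seed-type genes. AT2G34700 went from deposited signals of 12.6 and 7.1 in controls to 7311.5 and 3852.6 in induced seedlings, close to the course of AT3G01570.

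For AT3G18570 the nearest were AT1G27461 (0.559), AtVEX1 (0.673), a sugar transporter gene also called SWEET5 and named for the vegetative cell of pollen, and AT5G43770 (0.843). For AT2G25890 they were AtLEA4-1 (0.946), a late embryogenesis abundant gene, AT3G17520 (1.07) and AT1G27461 (1.10). AT1G27461 was thus near both other oleosins. AtLEA4-1 had, as deposited, control signals of 46.4 and 2.3 and induced signals of 1908.6 and 485.7, with the same order of replicates as AT2G25890.

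Among the oleosin genes themselves, AT3G18570 and AT2G25890 lay nearest to each other, at 1.51, and OLEO3 lay 1.83 from AT3G01570 and 1.90 from AT3G18570. The widest distance was 4.16, between AT3G01570 and AT2G25890. Seen from AT3G01570, OLEO3 was at place 5 among the 7721, and seen from OLEO3, AT3G01570 was at place 15. These distances describe 4 arrays and carry no test. All 10 neighbours in pattern had at least 1 control array under the dim limit, the 3 nearest to OLEO3 both, so these distances rest in part on dim signals. For AT1G28030 the rise is at least 8.16-fold, where that of OLEO3 was measured at 133-fold. The 10 were called higher in limma, which follows in large part from how they were found. Of these, AT1G28030 lost its call without LEC1 induced replicate 1 or 2, and AtLEA4-1 and AT3G17520 lost theirs without control replicate 2. AtLEA4-1 also lost its call with no filter (limma adjusted p = 0.0520), with a prior without a trend (0.0807) and with a robust prior (0.0568). AtLEA4-1, AT3G17520, AT1G27461, AtVEX1 and AT5G43770 did not pass the methods' t-test.

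**Figure D4:**
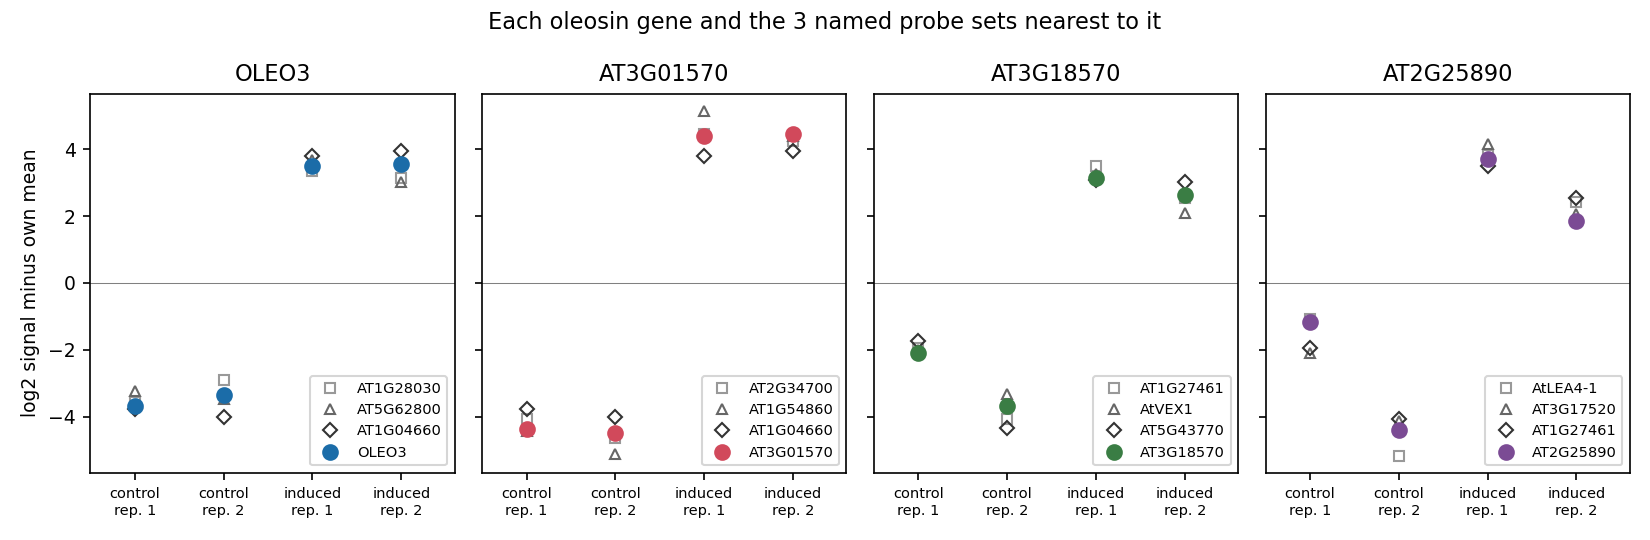
Log2 signal minus the probe set's own mean on each array, for each oleosin gene (filled) and the 3 named probe sets nearest to it (open). Points of OLEO3 and AT3G01570 are nearly level within each group, while AT3G18570, AT2G25890 and the probe sets nearest to them are lower on control replicate 2 than on control replicate 1.

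Genes beside the oleosin genes on the chromosome were looked up as well. Of the 24 protein-coding genes within 3 places on either side of the 4 loci, 10 were named alone and 8 were kept, with 9 probe sets. Of these 9, 0 were called in limma, where 2.83% of kept probe sets rose and 2.91% fell, and 0 by the methods' t-test. At an unadjusted limma p under 0.05 there were 3, a threshold that 3821 of all 14433 kept probe sets met. The changes of the 9 ranged from -1.44 to 1.05. The outer values were those of AT2G25870, 2 places from AT2G25890, at -1.44 ± 0.35 SE (limma adjusted p = 0.0666), and of AT3G01590, 3 places from AT3G01570, at 1.05 ± 0.34 SE (0.114). Next to AT3G18570, AT3G18560 differed by 0.29 ± 0.37 SE (0.648). The rises of the oleosin genes were not shared by their measured neighbours at any similar size.

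The kept genes of the other oil body and storage oil lists had smaller fitted changes than the oleosin genes. Of 9 listed lipid droplet proteins, 6 were named alone and 5 kept, of which 2 rose and 1 fell, where 2.83% of all kept probe sets rose and 2.91% fell. The median log2 change was 1.05, and 0 of the 5 passed the methods' t-test. The 1 named alone but not kept, AT5G16460, had deposited signals of 1.1 and 0.2 in controls and 60.6 and 10 after induction. It exceeded the filter's percentile on 1 induced array only, so it was not among the kept probe sets. Its mean log2 signals were -0.91 in controls and 4.23 after induction, and the change was 0.67 with dim signals set to the limit. AT3G14360 rose 8.82-fold, from 26.1 to 230.5 (limma adjusted p = 0.0122), a call lost without control replicate 2 (0.0903). AT3G05500 rose 3.30-fold, from 788.9 to 2601 (limma adjusted p = 0.0230), while AT2G47780 went from 1166 to 73.6 and fell by 3.98 as log2 signal (limma adjusted p = 0.0120). Neither passed with control replicate 1 left out (0.0914 and 0.0858) or control replicate 2 left out (0.141 and 0.0578), and AT3G05500 also did not pass on unnormalized (0.0640) or median-centred signals (0.128) or when the prior had no trend (0.0680).

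Of 8 listed caleosins, calcium-binding proteins of the droplet coat, 2 were named alone and both were under the dim limit on all 4 arrays. Of 8 listed steroleosins none was named alone. Of 21 listed genes of oil assembly, 2 were named alone and kept, and 0 were called in limma or by the methods' t-test. Both had an unadjusted limma p under 0.05, as did 3821 of all 14433 kept probe sets. The brighter of these, GPDHC1, a glycerol-3-phosphate dehydrogenase, had normalized means of 56.6 and 150.1 (change 1.41 ± 0.32 SE, limma adjusted p = 0.0586).

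Of 15 listed genes of oil breakdown, 6 were named alone and 5 kept, of which 1 rose and 1 fell, where 2.83% of all kept probe sets rose and 2.91% fell. The median log2 change was 0.26, and 0 of the 5 passed the methods' t-test. AIM1, an enzyme of beta-oxidation, rose 3.04-fold (limma adjusted p = 0.0378), and ICL, the isocitrate lyase of the glyoxylate cycle, fell by 1.09 on the log2 scale (limma adjusted p = 0.0415). Neither passed on unnormalized signals (0.0621 and 0.275), with a prior that had no trend (0.0679 and 0.140), with control replicate 1 left out (0.178 and 0.190) or with control replicate 2 left out (0.240 and 0.111). AIM1 also did not pass after median centring (0.0527), nor ICL with no filter (0.247) or with dim signals set to the limit (0.0701).

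**Figure D5:**
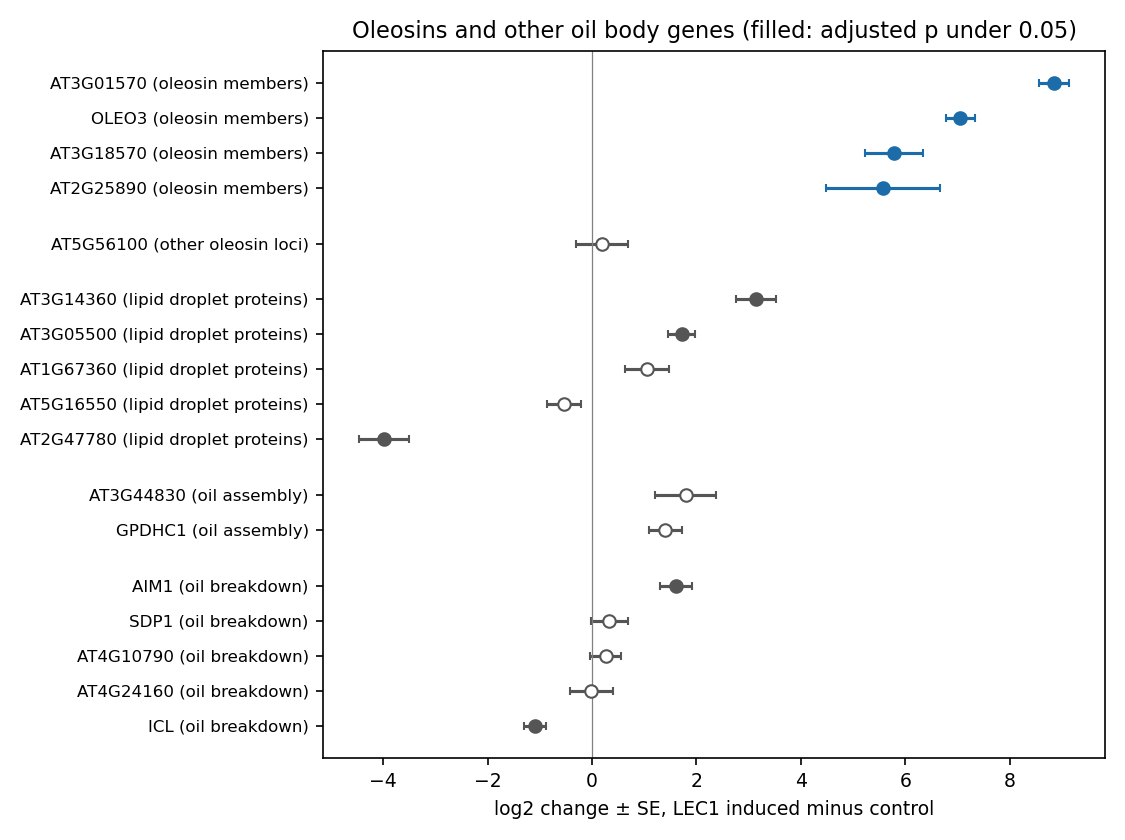
Log2 change ± SE, LEC1 induced minus control, of the oleosin genes and of the kept members of the other oil body and storage oil lists; filled points passed limma's test at an adjusted p under 0.05. The 4 oleosin genes lie between 5.58 and 8.85, and the other genes between -3.98 and 3.14.

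Of 17 listed markers of mature seed 5 were named alone and 3 kept, and 2 of these rose (against 2.83% of all kept probe sets), the vicilin-like storage genes PAP85 (at least 399-fold) and AT2G28490 (at least 284-fold). PAP85 passed the methods' t-test (adjusted p = 0.0858) and AT2G28490 did not (adjusted p = 0.239). Their part in the oleosin result was not tested. The third, AT2G18540, did not pass (change 3.46 ± 1.63 SE, limma adjusted p = 0.236), and both its control signals were under the dim limit. All 3 kept markers passed the filter on the 2 induced arrays alone, so the 2 calls among them are a description and not support. The summed signal of the 5 was 16.6 and 14 on control arrays and 10404 and 8741 after induction, nearly all of it from PAP85 and AT2G28490. M17 was under the dim limit on all 4 arrays and M10 exceeded it on induced replicate 1 alone. Of 15 listed tapetum and pollen markers 2 were named alone, AMS and AT5G07230, and both were under the dim limit on all 4 arrays. Their summed signal was 2.02 and 8.75 in the control group and 5.29 and 5.27 in the induced group.

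Markers of seedling tissue were above the dim limit on all 4 arrays, for 1 of 10 listed shoot genes and 2 of 9 listed root genes named alone. RCA, the Rubisco activase of green tissue, had normalized means of 2927 in controls and 1183 in induced seedlings (limma adjusted p = 0.0651), and EXPA18, a root hair expansin, had 212.6 and 63.1 (limma adjusted p = 0.0594). Neither passed, but RCA passed under 4 of 14 alternatives, among them median centring (change -2.01, limma adjusted p = 0.0238), and EXPA18 under 5, also with median centring (-1.95, 0.0274). The array medians as deposited were 20 and 15.5 for the control group and 39.4 and 22.3 for the induced group. For 1 pair of actin array controls, the ratio of 3' over 5' signal was 3.28 and 3.01 in the control group. It was 1.96 and 1.94 in the induced group, and for 1 GAPDH pair 0.773 to 0.932 over the 4 arrays. Another actin pair had 3' signals of 1744.9 and 1466.9 (control) and 1855.1 and 1242.7 (induced). Its 5' signals were 80 and 58.5 (control) and 85.9 and 60 (induced). Another GAPDH pair had 3' signals of 2497.1 and 1882.7 (control) and 2234 and 1553.7 (induced). Its 5' signals were 1598.7 and 1147.4 (control) and 1226.9 and 1355.8 (induced). The part of these differences in the oleosin result was not tested.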

How the data were processed

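Each deposited value is a linear signal intensity of 1 probe set on 1 array. MAS5 is named per the submitters' processing notes; its scaling target, detection calls and a genome build are not given in these sources. Of 22810 probe sets, 64 array controls were left out. Values under 0.1 (8 values) were set to 0.1, and log2 signals were quantile normalized. Groups were compared across all 14433 kept probe sets with limma 3.58.1 in R 4.3.3 (lmFit and eBayes, trend on), two-sided and Benjamini-Hochberg adjusted. The script was tested on simulated data. To 2 residual degrees of freedom the prior added 4.39. The precision is limited by 2 arrays per group. The limma p-values rest on the spread between these samples and on the variance that limma shares across probe sets. A platform annotation, updated through the TAIR10.1 gene table, named 13513 probe sets with 1 gene, 503 with several and left 8730 unnamed.

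The genes, lists and settings were chosen with earlier results of these data known. Named genes were the 4 oleosin genes, other listed oleosins, up to 4 called members (by size of change) of each other list or, with none called, its brightest kept member, and the 3 nearest in pattern. Chromosomal neighbours, M17, M10, AMS, AT5G07230 and AT5G16460 were added after their values were seen. Permutation tests used SciPy 1.17.1. No sequences are shown.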

Additional observations from a re-analysis of the deposited data

How the results depend on the processing

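The 14 alternatives changed the normalization, filter, offset, dim signals, variance prior, test, replicate block or the arrays used. All 4 oleosin genes stayed higher under each. AT2G25890 kept its fitted change of 5.58 but not its call with no filter, with the trend off, with a robust variance prior and in the methods' t-test, and AT3G18570 kept 5.78 but not its call in the last of these. Leaving out an array gave changes of 6.80 to 7.19 for OLEO3, 8.75 to 8.94 for AT3G01570, 4.93 to 6.48 for AT3G18570 and 3.94 to 7.15 for AT2G25890, where the call was lost without control replicate 2 and without LEC1 induced replicate 1. The cause was not tested. An offset of 16 gave 6.55, 7.63, 4.37 and 3.24 in the same order, which follows from adding a constant to dim signals. Without normalization, where the median over kept probe sets was 0.62, the changes were 7.56, 9.39, 6.17 and 6.04, and under median centring, where it was -0.14, they were 6.80, 8.64, 5.42 and 5.29. The mean difference in log2 change between the seed-type and other oleosins was 2.27. It was 2.37 both without normalization and under median centring, which are equal by construction, since centring shifts both genes of an array alike. It was 3.29 with the offset and 3.41 with dim signals at the limit. It ran from 1.00 (control replicate 1) to 3.51 (control replicate 2) when 1 array was left out, an alternative added after the data were seen. The offset and the limit lowered the rises of AT3G18570 and AT2G25890 more than those of the seed-type genes, which widens the difference.

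The number of probe sets called was 828 (408 higher), and 591 (494 higher) without normalization, 1409 (447 higher) under median centring, 381 with a prior without a trend and 396 in the methods' t-test. Leaving out an array gave 147 to 1803, namely 163 without control replicate 1, 147 without control replicate 2 and 1803 without LEC1 induced replicate 2. The fit with the replicate block called 2583, and the limma adjusted p of the 4 oleosin genes ran from 1.24e-05 to 5.92e-04. Nothing in the labels ties same-numbered samples together, and their deviations from the group means correlated at 0.311, a value that 2 arrays per group make equal for both numbers. The settings for genes other than the 4 oleosins were added after the data were seen, and only AT5G56100 turned its sign among them, with -0.46 to 0.86 when 1 array was left out and 0.91 without normalization.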
